A study of Mus musculus with 12 samples.

Results

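The CDK inhibitors and D-type cyclins are the genes whose products hold back or drive the kinases that start a cell cycle, and they were followed here in cultured mouse oligodendrocytes (OLs) treated with siEgr2. The members were chosen by symbol: Cdkn1a, Cdkn1b, Cdkn1c, Cdkn2a, Cdkn2b, Cdkn2c, Cdkn2d, Ccnd1, Ccnd2 and Ccnd3. All 10 were found among the 56860 named genes of the deposited count table, and all 10 were among the 16600 genes with enough counts to be tested. The group holds 7 inhibitors and 3 cyclins.

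The study compared 6 RNA-seq libraries of primary OLs given siEgr2, aimed at the transcription factor gene Egr2, with 6 libraries given the negative control siNC, to find genes downstream of Egr2 in these cells. Cells of both groups came from C57BL/6J mice and were harvested 48 h after transfection. The labels give the medial prefrontal cortex as the tissue, while the methods of the study describe cells taken from the cortex of newborn pups in the first postnatal week, enriched with beads against the surface antigen O4, expanded with PDGF-AA and then matured with triiodothyronine, ciliary neurotrophic factor and insulin. The methods call the control a scrambled siRNA, and they call the Egr2 reagent an siRNA in one place and an interference plasmid in another. Whether the libraries of a group came from separate cultures is not given in the sources used here, so the p-values measure the spread between libraries, which may be technical.

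Total counts per library lay between 28682946 and 39383014 in the siNC group and between 8034251 and 16683677 in the siEgr2 group. The 18S ribosomal RNA gene took 0.142% to 1.05% of counts in siNC libraries and 10.5% to 16.5% in siEgr2 libraries. Neither measure overlapped between the groups (two-sided exact permutation test over all assignments of the libraries, p = 0.00216 for each, the smallest value that 6 against 6 libraries can give). Depth and ribosomal share thus moved with treatment, and their part in the result was not tested beyond 2 alternatives. With all libraries thinned to the smallest total, and with structural RNA genes left out, the same members were called as described here, Cdkn2b at log2 fold changes of -0.89 and -0.93 and Ccnd2 at -0.77 and -0.78.

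Levels are given as CPM, the count of a gene relative to the total of its library, after scaling with TMM factors, a method that takes most genes as unchanged. Egr2 itself was at 3.89, 5.19 and 7.06 CPM (lowest, median and highest library) in the siNC group and at 2.22, 3.93 and 4.86 CPM in the siEgr2 group. The ranges overlapped, and replicates 1, 2 and 5 of siEgr2 were below all siNC libraries. The fit gave a log2 fold change of -0.51 (SE 0.21, adjusted p = 0.0981, edgeR quasi-likelihood test with Benjamini-Hochberg adjustment), and an exact permutation test on the single gene gave p = 0.0433 (two-sided). With these settings the targeted gene did not pass the test across all genes, from 119 to 295 counts in siNC and 30 to 65 counts in siEgr2 libraries. Over the 22 alternatives that keep both thresholds Egr2 lay between -0.70 (adjusted p = 0.0144, called), with scaling by library size alone, and -0.35 (adjusted p = 0.342), after thinning to the smallest total.

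D-type cyclins bind the kinases Cdk4 and Cdk6, and the complex phosphorylates the retinoblastoma protein, which releases E2F factors and lets a cell enter S phase. The inhibitors of the INK4 family, encoded by Cdkn2a to Cdkn2d, bind Cdk4 and Cdk6 themselves, while the inhibitors of the CIP/KIP family, encoded by Cdkn1a to Cdkn1c, bind complexes of a kinase with its cyclin. In the oligodendrocyte lineage these genes are known for the point at which a dividing precursor leaves the cell cycle to differentiate, with p27, the product of Cdkn1b, as the inhibitor described most often.

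Of the 10 members, 2 were called lower in siEgr2 libraries, Cdkn2b and Ccnd2, and 0 were called higher. Calls required an adjusted p below 0.05 and a log2 fold change past 0.5 in either direction in edgeR's quasi-likelihood test, which over all 16600 genes called 7.72%, with 2.63% called higher and 5.08% called lower. At an unadjusted p under 0.05, 2 members were higher and 2 were lower. The share of all tested genes at that cut was not taken, here or for the lists below. DESeq2 and limma-voom also called 0 members higher. With the adjusted p alone, which 19.9% of all tested genes passed, 4 members passed: Cdkn2b and Ccnd2 below siNC, and Cdkn2c and Ccnd3 above it by less than the fold threshold. Scaling by library size alone moved the median of all genes from 0.0046 to -0.18, and on that scale Cdkn2c was at 0.16 (adjusted p = 0.205) and Ccnd3 at 0.15 (adjusted p = 0.0703), so neither passed. The groups did not overlap for 3 members, Cdkn2b, Ccnd2 and Ccnd3, against 11.2% of all tested genes. The median log2 fold change was 0.073 over the members and 0.0046 over all tested genes, and 7 members were above 0, or 3 with scaling by library size alone.

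**Figure D1:**
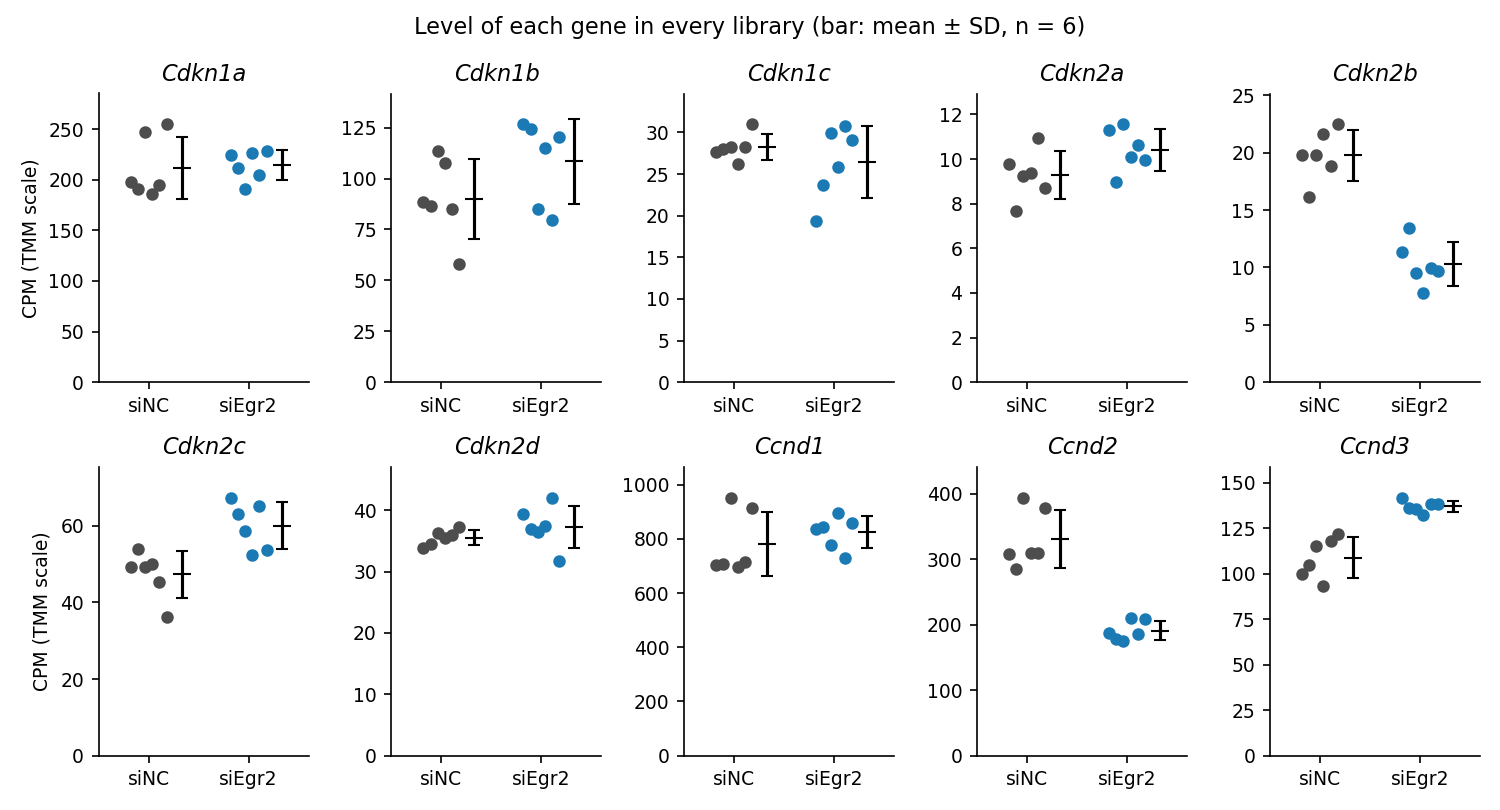
Level of each CDK inhibitor and D-type cyclin in CPM (vertical axis, TMM scale) in the 6 siNC and 6 siEgr2 libraries, 1 point a library, with the mean and SD beside each group. Cdkn2b and Ccnd2 have every siEgr2 library below every siNC library, and Ccnd3 has every siEgr2 library above.

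The labelled cell type was examined with marker lists. All 8 markers of oligodendrocyte precursors were tested, 2 were called higher (Cspg4, log2 fold change 0.56, and Pdgfra, 0.56, or 0.38 and 0.37 and uncalled with scaling by library size alone) and 0 lower, and Olig1 was the most abundant. Their summed level was 5109, 5381 and 5463 CPM (lowest, median, highest) in siNC libraries and 6341, 6404 and 6467 CPM in siEgr2 libraries. Newly formed OL markers had 0 of 5 tested called by edgeR, DESeq2 or limma-voom, with 1 higher and 2 lower at an unadjusted p under 0.05, and summed to 2278, 2446 and 2569 CPM and to 2198, 2715 and 3162 CPM. Their median log2 fold change was -0.14 and 1 of the 5 was above 0, Bcas1, the most abundant, at 1377 ± 51.2 and 1743 ± 424 CPM (SD, n = 6 each). A list of 9 markers of a later OL stage, whose genes are not named here, had 0 called by edgeR, DESeq2 or limma-voom. Of these 9, 0 were above 0, 6 were lower at an unadjusted p under 0.05, and 3 were lower with the adjusted p alone. Their median log2 fold change was -0.18. They summed to 6417, 6720 and 7232 CPM in siNC libraries and to 5884, 5972 and 6202 CPM in siEgr2 libraries, without overlap.

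Astrocyte markers were abundant as well, although the cells had been enriched for O4, and they were lower in siEgr2 libraries, as were Cdkn2b and Ccnd2. Of 9 genes, 9 were tested, 5 were called lower and 0 higher, and none was at 0. Their summed level was 8245, 8645 and 8946 CPM in siNC libraries and 5293, 5733 and 5976 CPM in siEgr2 libraries, which did not overlap. Gfap was the most abundant, at 4777 ± 205 and 3242 ± 152 CPM (SD, n = 6 each), with a log2 fold change of -0.56, and Slc1a3, Aqp4, Aldh1l1 and Slc1a2 had log2 fold changes of -0.85, -0.80, -0.74 and -0.61. In bulk libraries fewer cells of a type and less RNA per cell cannot be told apart, and the part of astrocytes in the lower Cdkn2b and Ccnd2 was not tested.

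Among the INK4 genes the called member was Cdkn2b, which encodes p15, an inhibitor known as a target of TGF-beta signaling. Cdkn2b was at 16.1, 19.8 and 22.5 CPM (lowest, median, highest) in siNC libraries and at 7.78, 9.82 and 13.4 CPM in siEgr2 libraries. No siEgr2 library reached the lowest siNC library, and the closest pair was siEgr2 replicate 2 and siNC replicate 2. Mean levels were 19.8 ± 2.24 and 10.3 ± 1.92 CPM (SD, n = 6 each), a log2 fold change of -0.94 (SE 0.12, 95% interval -1.20 to -0.68, adjusted p = 3.89e-05, edgeR quasi-likelihood test with Benjamini-Hochberg adjustment), a level 1.92 times lower. These values rest on 527 to 938 counts in siNC libraries and 78 to 169 counts in siEgr2 libraries.

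Cdkn2a, next to Cdkn2b on the chromosome, was not called. This gene encodes a pair of proteins from different first exons, the INK4 inhibitor p16 and p19Arf, which acts on the p53 regulator Mdm2 and not on a cyclin-dependent kinase. Cdkn2a was at 7.67, 9.31 and 10.9 CPM in siNC libraries and at 8.95, 10.4 and 11.6 CPM in siEgr2 libraries. The groups overlapped, with 2 siEgr2 libraries above the highest siNC library. The log2 fold change of Cdkn2a was 0.17 (SE 0.11, 95% interval -0.060 to 0.39, adjusted p = 0.307, edgeR quasi-likelihood test with Benjamini-Hochberg adjustment), from 83 to 363 counts a library, and its sign turned to -0.014 with scaling by library size alone. The transcripts Cdkn2a-201, which starts at the p16 exon, and Cdkn2a-202, which starts at the Arf exon, share 575 bases, 67.5% of the former and 64.2% of the latter, so counts per gene cannot tell them apart.

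The ratio of Cdkn2b to Cdkn2a counts within a library needs no scaling between libraries. It was 1.72, 2.12 and 2.58 (lowest, median, highest) in siNC libraries and 0.770, 0.955 and 1.5 in siEgr2 libraries. The groups did not overlap, and 4 of the 6 siEgr2 libraries held fewer counts of Cdkn2b than of Cdkn2a, as no siNC library did.

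In the GENCODE M21 annotation of GRCm38, Cdkn2a lies at chr4:89274471-89294653 and Cdkn2b at chr4:89306299-89311039, both on the minus strand, with 11645 bases between them. Of their neighbours on that chromosome, 3 were listed: Mtap, which encodes an enzyme of methionine salvage, Dmrta1, a DM-domain factor gene, and Klhl9, which encodes an adaptor of a ubiquitin ligase. Of the 3, 0 were called by edgeR, DESeq2 or limma-voom, and 0 had an unadjusted p under 0.05. Klhl9 was at 185 ± 13.8 CPM in siNC and 186 ± 6.94 CPM in siEgr2 libraries (SD, n = 6 each), and Mtap at 70.0 ± 4.58 and 71.6 ± 4.99 CPM. The median log2 fold change of the 3 neighbours was 0.032.

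**Figure D2:**
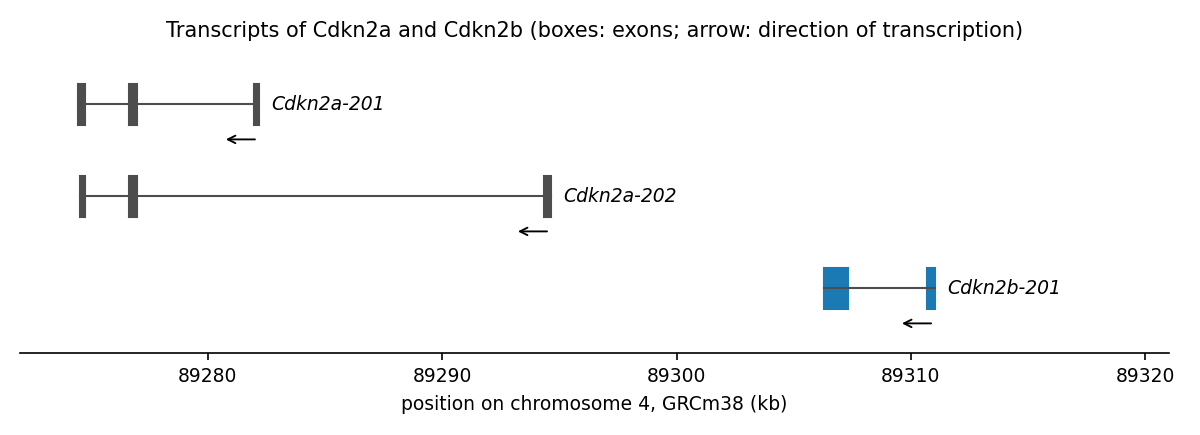
Map of Cdkn2a and Cdkn2b on chromosome 4 (horizontal axis, position in kb on GRCm38), with the exons of each GENCODE M21 coding transcript as boxes to scale and arrows for the direction of transcription. Both genes run to the left, Cdkn2a-201 and Cdkn2a-202 share their second and most of their last exon, and Cdkn2b-201, of the gene that was lower in siEgr2 libraries, has 2 exons.

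The promoter sequences of RefSeq (GRCm38.p6) cover 7 of the 10 members with 11 windows. They were searched on both strands for GCGNGGGCG, a motif of Egr factors, TTTNNCGC, a motif of E2F factors, and GGGCGG, a motif of Sp factors, which can overlap the first because both hold GGGCG. Of all 32817 promoter windows of the table, the 250 bases before the RefSeq start held the Egr motif in 4.70%, the E2F motif in 4.28% and the Sp motif in 32.7%. The 250 bases before the RefSeq start of Cdkn2b and before the p16 start of Cdkn2a are printed here because they show the called INK4 gene beside its neighbour. For Ccnd1, Ccnd2 and Cdkn1c the table has no entry. Letters in capitals are matches. Cdkn2b (chr4:89311033-89311282, minus strand) held none of the 3 motifs, and its last 7 bases lie in the first exon of Cdkn2b-201 in GENCODE M21. The p16 start of Cdkn2a (chr4:89282193-89282442, minus strand) held 1 E2F motif, 244 bases before the start. The window of the Arf start (chr4:89294620-89294869, minus strand) held 1 E2F motif, 99 bases before the RefSeq start, and 2 Sp motifs, and its last 34 bases, with 1 of the Sp motifs, lie in the first exon of Cdkn2a-202 in GENCODE M21. A window of Cdkn2c (chr4:109666757-109667006, minus strand) held 2 Egr motifs, 99 and 44 bases before the RefSeq start, each overlapping an Sp motif, and 1 further Sp motif, and all 250 of its bases lie in the first exon of Cdkn2c-202 in GENCODE M21, while the other Cdkn2c window held none of the 3 motifs. Of the remaining members, Cdkn2d held 1 Egr motif, 37 bases before the RefSeq start on the opposite strand, beside Sp motifs, in a window with 198 bases in GENCODE M21 exons of the gene, and Cdkn1b, Cdkn1a and Ccnd3 held Sp motifs only. A match describes the letters and not a bound site.
Cdkn2b: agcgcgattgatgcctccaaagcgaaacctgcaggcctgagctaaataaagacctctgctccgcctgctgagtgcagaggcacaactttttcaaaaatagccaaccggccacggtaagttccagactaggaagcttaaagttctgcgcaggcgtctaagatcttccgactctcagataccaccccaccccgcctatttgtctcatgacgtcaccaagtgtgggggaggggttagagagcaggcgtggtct
Cdkn2a p16 start: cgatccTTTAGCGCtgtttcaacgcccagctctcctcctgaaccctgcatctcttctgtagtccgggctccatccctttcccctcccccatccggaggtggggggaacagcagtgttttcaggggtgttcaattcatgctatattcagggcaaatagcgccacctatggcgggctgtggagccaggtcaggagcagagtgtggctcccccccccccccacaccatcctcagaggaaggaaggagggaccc

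Cdkn2c, which encodes p18, passed the adjusted p and not the fold threshold. It was at 36.1, 49.2 and 53.9 CPM in siNC libraries and at 52.3, 60.9 and 67.3 CPM in siEgr2 libraries. The groups overlapped, and 4 of 6 siEgr2 libraries were above the highest siNC library. The log2 fold change of Cdkn2c was 0.34 (SE 0.090, 95% interval 0.15 to 0.53, adjusted p = 0.0120, edgeR quasi-likelihood test with Benjamini-Hochberg adjustment). Set against Cdkn2c within each library, Cdkn2b fell from a ratio of 0.299 to 0.622 in the siNC group to 0.149 to 0.213 in the siEgr2 group, with no overlap. Cdkn2d, which encodes p19Ink4d, was between 33.8 and 37.2 CPM in siNC and between 31.7 and 42.0 CPM in siEgr2 libraries, and the groups overlapped. For Cdkn2d the log2 fold change was 0.069 (95% interval -0.067 to 0.20), and -0.11 with scaling by library size alone.

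Of the CIP/KIP genes, 0 of 3 were called by edgeR, DESeq2 or limma-voom, and 0 had an unadjusted p under 0.05. Cdkn1a, which encodes p21 and is a classic target of p53, was at 186, 196 and 255 CPM in siNC libraries and at 191, 218 and 228 CPM in siEgr2 libraries. The siEgr2 libraries all lay within the range of the siNC libraries. Its log2 fold change was 0.016 (SE 0.082, 95% interval -0.16 to 0.19, adjusted p = 0.918, edgeR quasi-likelihood test with Benjamini-Hochberg adjustment), an interval that stays within the fold threshold. The estimate changed sign to -0.17 with scaling by library size alone, to -0.028 without a filter on low counts, and lay between -0.017 and 0.077 with single libraries left out.

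Cdkn1b, which encodes p27, had a wide spread within both groups. It was at 58.0, 87.5 and 113 CPM in siNC libraries and at 79.5, 118 and 127 CPM in siEgr2 libraries. The groups overlapped, with 4 siEgr2 libraries above the highest siNC library and the remaining ones, replicates 3 and 5, at 84.8 and 79.5 CPM. Those libraries also had the lowest 18S shares of the siEgr2 group, 10.5% and 10.7%. In the siNC group, replicate 3 had the highest level, 113 CPM, at the highest share, 1.05%. Replicate 6 of siNC had the lowest level, 58.0 CPM, at a share of 0.981%. The part of the 18S share in the level was not tested. The log2 fold change of Cdkn1b was 0.27 (SE 0.17, 95% interval -0.11 to 0.65, adjusted p = 0.312, edgeR quasi-likelihood test with Benjamini-Hochberg adjustment), an interval that includes no change and values past the fold threshold. With scaling by library size alone the value was 0.084 (adjusted p = 0.731).

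Cdkn1c, an imprinted gene that encodes p57 and is expressed mainly from the maternal allele, was between 26.2 and 31.0 CPM in siNC libraries and between 19.4 and 30.7 CPM in siEgr2 libraries. The groups overlapped, and 3 siEgr2 libraries lay below the lowest siNC library. For Cdkn1c the log2 fold change was -0.098 (95% interval -0.31 to 0.11, adjusted p = 0.541, edgeR quasi-likelihood test with Benjamini-Hochberg adjustment). With scaling by library size alone Cdkn1c was at -0.28 (adjusted p = 0.0464), past the adjusted p and not the fold threshold. Its imprinted domain on chromosome 7 holds other genes with larger changes. Of 9 listed genes, 5 were tested, 2 were called higher and 0 lower, with a median log2 fold change of 0.038. Without a filter on low counts 8 were tested, 1 was called higher and 1 lower, and the median was -0.12. Kcnq1ot1, the noncoding RNA of the domain that is transcribed from the paternal allele, was between 12.1 and 17.0 CPM in siNC and between 32.0 and 73.3 CPM in siEgr2 libraries, with no overlap. Its log2 fold change of 1.64 (SE 0.25, adjusted p = 0.000635, edgeR quasi-likelihood test with Benjamini-Hochberg adjustment) was the largest in size among the tested genes of all lists described here. Tssc4, also called, was at 60.6 ± 5.41 and 104 ± 37.0 CPM (SD, n = 6 each), with a log2 fold change of 0.78 (adjusted p = 0.0377, edgeR quasi-likelihood test with Benjamini-Hochberg adjustment). The call of Tssc4 held in 8 of the 22 alternatives that keep both thresholds. It was lost, at adjusted p-values from 0.0537 to 0.0788, without any 1 of 10 libraries, all but siEgr2 replicates 1 and 2. Further losses came with library size only, without a filter on low counts, and with limma-voom (adjusted p = 0.0690). A block for replicate number in edgeR also lost the call (adjusted p = 0.125). The most abundant genes of the domain were Cd81, a tetraspanin gene, at 1009 ± 45.1 and 889 ± 57.3 CPM, and Nap1l4, a histone chaperone gene, at 163 ± 7.70 and 168 ± 4.94 CPM. Phlda2 was at 0 in every library, while Kcnq1, Slc22a18 and Th, at 0 in some libraries, had too few counts to be tested. Slc22a18 had 3 to 18 counts in siNC libraries and 0 in every siEgr2 library.

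Among the D-type cyclins, Ccnd2 was the called member. Ccnd2, which encodes cyclin D2, was at 285, 309 and 393 CPM in siNC libraries and at 174, 187 and 210 CPM in siEgr2 libraries. Even the highest siEgr2 library was under the lowest siNC library. Mean levels were 330 ± 44.2 and 191 ± 15.1 CPM (SD, n = 6 each). The log2 fold change of Ccnd2 was -0.79 (SE 0.081, 95% interval -0.97 to -0.62, adjusted p = 1.10e-05, edgeR quasi-likelihood test with Benjamini-Hochberg adjustment), a level 1.73 times lower.

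Ccnd1, which encodes cyclin D1, was at 697, 711 and 951 CPM in siNC libraries and at 730, 840 and 894 CPM in siEgr2 libraries. All siEgr2 libraries lay within the siNC range. In the siNC group, replicates 3 and 6 stood above the other libraries for Ccnd1, at 951 and 915 CPM, and also for Ccnd2, at 393 and 378 CPM, and for Cdkn1a, at 247 and 255 CPM. The log2 fold change of Ccnd1 was 0.077 (SE 0.090, 95% interval -0.12 to 0.27, adjusted p = 0.613, edgeR quasi-likelihood test with Benjamini-Hochberg adjustment), and it was -0.11 with scaling by library size alone. Part of Ccnd1 overlaps exons of the gene LTO1 on the opposite strand, and whether reads were counted by strand is not given in the sources used here.

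Ccnd3, which encodes cyclin D3, was at 93.4, 110 and 122 CPM in siNC libraries and at 132, 137 and 142 CPM in siEgr2 libraries. Even the lowest siEgr2 library exceeded the highest siNC library. The log2 fold change of Ccnd3 was 0.33 (SE 0.060, 95% interval 0.21 to 0.46, adjusted p = 0.000781, edgeR quasi-likelihood test with Benjamini-Hochberg adjustment), which is under the fold threshold. Ccnd3 shares exon positions with Bysl on the opposite strand, whose log2 fold change was -0.0091, and its pseudogene Ccnd3-ps had at most 6 counts in any library.

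Within a library, Ccnd2 counts were 0.402, 0.423 and 0.443 times those of Ccnd1 (lowest, median, highest) in the siNC group and 0.212, 0.229 and 0.255 times in the siEgr2 group. These ranges did not overlap. Against Ccnd3, the Ccnd2 ratio was 2.62 to 3.41 in siNC and 1.29 to 1.59 in siEgr2 libraries, again without overlap. The Ccnd3 to Ccnd1 ratio, 0.121 to 0.165 and 0.148 to 0.189, overlapped between the groups. Counts were also divided by the length of all annotated exons of each gene, whichever transcripts were expressed. Ccnd2 then made up 15.7% to 17.2% of the 3 cyclins in siNC libraries and 8.89% to 10.4% in siEgr2 libraries. Ccnd1 was the main D-type cyclin on this scale, at 76.6% to 78.6% in siNC and 81.4% to 83.9% in siEgr2 libraries.

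**Figure D3:**
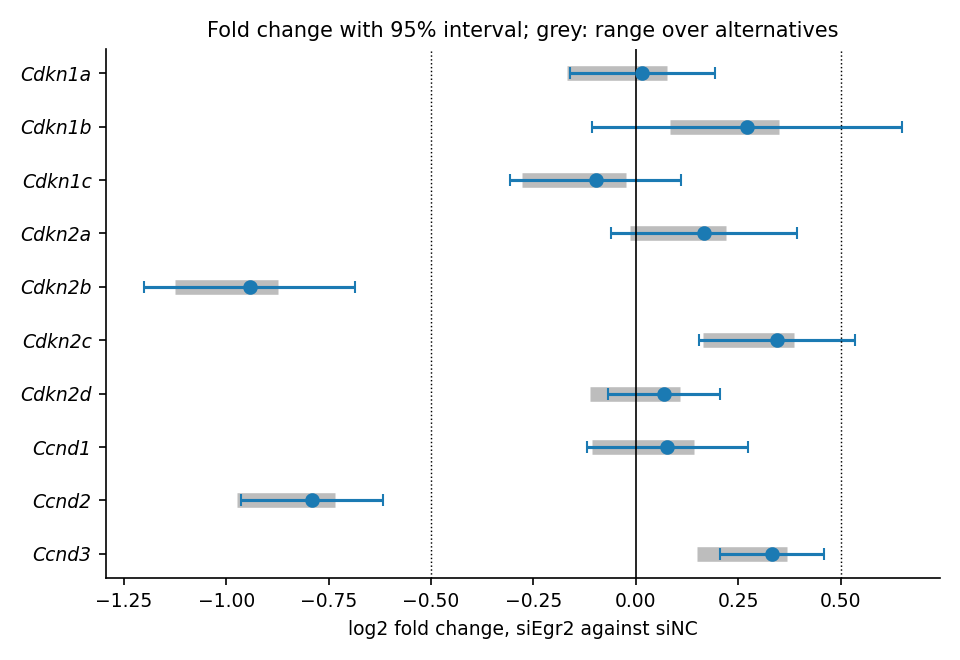
Log2 fold change of each member in siEgr2 against siNC libraries (horizontal axis), with points for the estimate, lines for its 95% interval and grey bars for the range of estimates over the 22 alternatives that keep both thresholds. Dotted lines stand at the fold threshold of 0.5 in each direction, and only the intervals of Cdkn2b and Ccnd2 lie wholly past it.

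Levels between members were compared as CPM per kb of exon, with lengths from GENCODE M21. Each length was the union of all annotated exons of a gene, 8775 bases for Ccnd3 and 1390 for Cdkn2b. Which transcripts the cells expressed was not determined, so the order and the shares depend on these lengths. In siNC libraries the order by median was Ccnd1 (151 CPM per kb), Cdkn1a (55.2), Ccnd2 (32.8), Cdkn2d (22.7), Cdkn1b (19.2), Cdkn2c (18.3), Cdkn2b (14.2), Cdkn1c (13.8), Ccnd3 (12.5) and Cdkn2a (7.94). The first 3 were apart from each other and from the rest in every siNC library, Cdkn2a was below all others, and ranges of neighbours from Cdkn2d to Ccnd3 overlapped. In siEgr2 libraries Ccnd2 stood at 19.9 CPM per kb, between Cdkn2c (22.7) and Ccnd3 (15.6), and its range now overlapped that of Cdkn2c. Cdkn2b was lowest at 7.06 CPM per kb, and its range, 5.59 to 9.66, overlapped that of Cdkn2a, 7.64 to 9.86. Cdkn1a remained the inhibitor of the highest level per length, at 34.1% to 44.7% of the 7 inhibitors in siNC and 36.1% to 40.0% in siEgr2 libraries. Cdkn2b fell from 7.90% to 10.1% of the inhibitors in siNC libraries to 3.51% to 5.94% in siEgr2 libraries.

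In the list of kinases and later cyclins calls went in both directions, and the gene called lower was a kinase gene, Cdk6. With the adjusted p alone, 7 genes of this list were higher and 1 was lower. Of 13 listed genes, 13 were tested, 2 were called higher and 1 lower, with a median log2 fold change of 0.20. Cdk6, which encodes a kinase partner of the D-type cyclins, was at 12.8 ± 2.86 CPM in siNC and 7.60 ± 1.36 CPM in siEgr2 libraries (SD, n = 6 each), with a log2 fold change of -0.76 (SE 0.16, adjusted p = 0.00258, edgeR quasi-likelihood test with Benjamini-Hochberg adjustment). The groups overlapped. Cdk4, the other kinase partner, was at 221 ± 5.96 and 247 ± 16.9 CPM, a log2 fold change of 0.16 under the fold threshold, and -0.018 with scaling by library size alone. Cdk1, the kinase of mitotic entry, rose from 41.6 ± 4.72 to 61.6 ± 5.94 CPM with a log2 fold change of 0.57, and Ccne2, a cyclin E gene of the G1 to S transition, from 14.4 ± 2.20 to 21.3 ± 2.58 CPM with a log2 fold change of 0.56. Ccna2, which encodes the cyclin A of dividing somatic cells, lay between 83.3 and 101 CPM in siNC and between 124 and 138 CPM in siEgr2 libraries, without overlap, and its log2 fold change of 0.46 was under the threshold.

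Downstream of the kinases, 13 genes of the RB family and E2F factors were tested, of which 1 was called higher and 0 lower. E2f7, an E2F that represses transcription, was at 22.8 ± 1.79 and 35.0 ± 3.41 CPM (SD, n = 6 each) without overlap, with a log2 fold change of 0.62 (SE 0.078, adjusted p = 2.89e-05, edgeR quasi-likelihood test with Benjamini-Hochberg adjustment). Rb1, the retinoblastoma gene, was at 82.1 ± 6.27 and 81.7 ± 7.52 CPM, and Tfdp1, which encodes the dimer partner of E2F proteins, was at 132 ± 19.2 and 144 ± 22.9 CPM. The median of the list was 0.12.

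Most genes of proliferating cells passed the adjusted p and not the fold threshold. Of 19 genes, 18 passed the adjusted p alone, all of them higher in siEgr2 libraries, and 4 passed both thresholds, with a median log2 fold change of 0.39. Aurkb, a mitotic kinase gene, was at 20.1 ± 1.70 and 32.4 ± 4.60 CPM (SD, n = 6 each), with a log2 fold change of 0.69. Bub1, of the spindle checkpoint, Cdt1, of replication licensing, and Cenpe, a kinetochore motor gene, had log2 fold changes of 0.55, 0.53 and 0.53. Cdt1 was under the fold threshold without siNC replicate 4 (0.463), siEgr2 replicate 4 (0.491) or siEgr2 replicate 6 (0.452), and Cenpe without siNC replicate 5 (0.492) or siEgr2 replicate 1 (0.499), and both without a filter on low counts (0.483 and 0.482). The most abundant were Mki67 at 301 ± 20.0 and 390 ± 23.3 CPM and Top2a at 284 ± 16.3 and 373 ± 22.9 CPM, with no overlap for either. With scaling by library size alone, all 19 were above 0 and Aurkb was the 1 gene called, while Cdk1, at 0.39, Ccne2, at 0.38, and E2f7, at 0.44, were below the fold threshold.

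Regulators that act on the inhibitors and cyclins by turnover or phosphorylation had 0 of 10 genes called by edgeR with the settings used here, by DESeq2 or by limma-voom. In edgeR alternatives 1 was called higher after thinning, 1 lower with scaling by library size alone and 1 lower without a filter on low counts. At an unadjusted p under 0.05, 4 of them were higher and 1 lower, and the median log2 fold change was 0.070. The most abundant were Ddb1, an adaptor of the CUL4 ubiquitin ligase, at 525 ± 14.0 CPM in siNC and 506 ± 10.6 CPM in siEgr2 libraries, and Cul4a at 111 ± 3.55 and 109 ± 5.08 CPM (SD, n = 6 each). Of 15 transcription and chromatin regulators of the members, 1 was called lower and 0 higher, with a median of 0.15. With the adjusted p alone, 4 of these regulators were higher and 1 was lower. Foxo1, a forkhead factor known to raise Cdkn1b and to lower D-type cyclins, was at 31.2 ± 1.11 and 21.6 ± 2.06 CPM without overlap, with a log2 fold change of -0.53 (SE 0.071, adjusted p = 5.38e-05, edgeR quasi-likelihood test with Benjamini-Hochberg adjustment). The most abundant of this list were Mdm4, a p53 regulator, at 112 ± 6.37 and 127 ± 12.3 CPM, and Foxo3 at 107 ± 5.01 and 104 ± 4.32 CPM.

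Cdkn1a shares p53 as a regulator with a list of 20 other p53 targets, of which 1 was called lower and 0 higher, with a median log2 fold change of 0.11. With the adjusted p alone, 7 of these targets were higher and 1 was lower. Fas, a death receptor gene, was at 20.3 ± 0.618 CPM in siNC and 9.59 ± 1.19 CPM in siEgr2 libraries (SD, n = 6 each) without overlap, with a log2 fold change of -1.07 (SE 0.089, adjusted p = 4.79e-07, edgeR quasi-likelihood test with Benjamini-Hochberg adjustment). The most abundant were Ccng1, a cyclin G gene, at 347 ± 29.7 and 371 ± 14.5 CPM, and Zmat3, a gene of an RNA-binding protein, at 232 ± 13.1 and 259 ± 14.8 CPM. With scaling by library size alone, where the median of all genes was -0.18, the medians were below 0 for the members (-0.11), the RB family and E2F factors (-0.061), the turnover (-0.11) and the transcription (-0.031) regulators, the other p53 targets (-0.068), the imprinted domain (-0.14) and the neighbours of Cdkn2a and Cdkn2b (-0.15).

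The genes most like Cdkn2b over the 12 libraries, by Pearson correlation of log2(CPM + 0.5), were Mt1 (r = 0.986) and Mt2 (r = 0.986), which encode metallothioneins, and Csrp1 (r = 0.979), which encodes a LIM-domain protein. Those most like Ccnd2 were Slc5a3 (r = 0.994), an inositol transporter gene, Tnc (r = 0.988), which encodes the matrix protein tenascin C, and Cavin1 (r = 0.987), a caveola gene. Each r spans both groups, so it holds the difference between siNC and siEgr2 libraries as well as any spread within them, and the libraries share the separation in depth and ribosomal share. Mt1 was at 504 ± 25.3 and 299 ± 30.2 CPM, and Mt2 at 538 ± 28.9 and 301 ± 38.9 CPM (SD, n = 6 each). Slc5a3 was at 262 ± 30.4 and 153 ± 8.34 CPM and Tnc at 185 ± 40.8 and 74.5 ± 10.8 CPM, both also lower in every siEgr2 library.

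Markers of fibroblasts and pericytes had 3 of 7 tested genes called lower, Rgs5, Acta2 and Pdgfrb, with log2 fold changes of -0.78, -0.57 and -0.56, and 0 higher. Pdgfrb was at -0.49, under the threshold, without siNC replicate 2. Their summed level was 681, 869 and 1108 CPM in siNC and 669, 730 and 801 CPM in siEgr2 libraries, Col1a1 was the most abundant, and their part in the result was not tested. Ependymal markers had 0 of 4 tested genes called by edgeR with the settings used here, by DESeq2 or by limma-voom, with 2 lower at an unadjusted p under 0.05, and in edgeR alternatives 2 were called lower with scaling by library size alone, 1 after thinning and 1 without a filter on low counts. Foxj1, the most abundant, had a log2 fold change of -0.48 (adjusted p = 0.000116, edgeR quasi-likelihood test with Benjamini-Hochberg adjustment), just under the fold threshold, and its groups did not overlap. The ependymal markers summed to 64.7 to 84.9 CPM and 48.8 to 62.1 CPM. Neuronal markers, led by Map2, had 1 of 7 tested genes called, Stmn2 at a log2 fold change of -0.91. Of the 7, 4 were above 0, with a median log2 fold change of 0.23. With the adjusted p alone, 1 was higher and 2 were lower. The neuronal markers summed to 406 to 659 CPM and 394 to 633 CPM. Endothelial markers, led by Kdr, had median sums of 30.2 and 30.7 CPM, with Cldn5 at 0 in every library. Of 3 tested genes, 1 was called, Flt1 at a log2 fold change of -1.35. The median was 0.053 and 2 of the 3 were above 0, or 1 with limma-voom and 0 with scaling by library size alone. Flt1 had few counts, 45 to 97 in siNC and 3 to 22 in siEgr2 libraries. It was uncalled after thinning (-1.12, adjusted p = 0.0718, edgeR quasi-likelihood test with Benjamini-Hochberg adjustment).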

How the data were processed

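RNA of 12 libraries was extracted with TRIzol and sequenced on the Illumina platform with reads of 50 bases. The authors deposited raw counts per gene symbol, without normalization. The submitters' processing notes name mm10 as the genome build, and the aligner, the counting program, the annotation and the use of strand are not given in the sources used here, so counts of overlapping genes and of close copies are uncertain. The table held 1 blank entry, which was left out. Over 30 pairs of libraries within a group, the chi-square per gene was 7.09 to 36.7, so no library was a copy of another in its group, and pairs between the groups were not examined.

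Tests used edgeR 4.0.16 under R 4.3.3 (filterByExpr, TMM, robust quasi-likelihood fit, no covariate) and Benjamini-Hochberg adjustment over all 16600 tested genes. SEs were taken as the log2 fold change divided by the root of the F statistic. The thresholds on adjusted p (0.05) and on the size of the log2 fold change (0.5) are those of the study. The biological coefficient of variation was 0.170, and siEgr2 libraries, with fewer counts, limit the precision of low genes. The procedure was tested on simulated counts.

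The members and lists were chosen with earlier results of these data known. Named genes are all members, Egr2, up to 6 called genes of each list by size of change and the 2 of highest level (for cell type markers, the most abundant gene), and the 3 genes most correlated with the called inhibitor and the called cyclin. Genes counted as 0 or untested in a list, and overlapping genes, were named after their values were seen. The lists were CDKs and other cyclins, RB family and E2F factors, turnover and phosphorylation regulators, transcription and chromatin regulators, other p53 targets, proliferation genes, the imprinted domain around Cdkn1c, neighbours of Cdkn2a and Cdkn2b, and markers of 9 cell types. Of the marker lists, 7 are given in the text with named genes and 1, of a later OL stage, without them. The precursor, newly formed and later OL lists are those of the labelled cells. Of the newly formed OL list, 1 of 6 genes, Tmem2, had no entry under that symbol. The alternatives were RLE, upper-quartile and library-size scaling, DESeq2 1.42.0, limma-voom (limma 3.58.1), no filter or a stricter filter on low counts, a block for replicate number, thinning to the smallest total, structural RNA genes left out, the adjusted p alone, and each library left out in turn.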

Additional observations from a re-analysis of the deposited data

Results flagged for a closer look

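Among 38 groups of 6 values examined (each member, Egr2, total counts, 18S share and 6 ratios between members, in siNC and in siEgr2 libraries), 2 held a library far from the others, where chance gives about 1.9. The total count of siNC replicate 6 was 39383014, against 28682946 to 32460116 in the other siNC libraries. Without that library, the log2 fold change of Cdkn2b was -0.90 and that of Ccnd2 was -0.75. The ratio of Cdkn2b to Cdkn2a counts in siEgr2 replicate 2 was 1.5, against 0.770 to 1.01 in the other siEgr2 libraries. Without that library, the log2 fold change of Cdkn2b was -1.04 and that of Cdkn2a was 0.20.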

How the results depend on the processing

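Cdkn2b and Ccnd2 were the members called, both lower, in all 22 alternatives that keep both thresholds, with log2 fold changes of -1.12 to -0.87 and -0.97 to -0.73. With the adjusted p alone, the remaining alternative, 4 members passed, 2 of them higher, and 3300 genes in all, 1423 higher and 1877 lower, since that setting drops the fold threshold. The replicate numbers do not pair the libraries (correlation of same-numbered libraries -0.039 to 0.042, with 2 of 6 closest to their own number), and the replicate block called 1124 genes, 2 members among them. Library size only called 1974 genes, 237 higher and 1737 lower, so 88.0% of calls were lower against 65.9%, with the median of all genes at -0.18. Under it signs turned for Cdkn1a (-0.17), Cdkn2a (-0.014), Cdkn2d (-0.11), Ccnd1 (-0.11), Cdk4 (-0.018), Tfdp1 (-0.061), Mdm4 (-0.0014), Ccng1 (-0.086), Zmat3 (-0.025), Nap1l4 (-0.14), Klhl9 (-0.18) and Mtap (-0.15), and Egr2 was called at -0.70. Without a filter on low counts, signs turned for Cdkn1a (-0.028), Nap1l4 (-0.0062), Klhl9 (-0.037) and Mtap (-0.012). Thinned to the smallest total, Rb1 was at 0.011 and Cul4a at 0.0095, and without structural RNA genes Rb1 was at 0.0015. With each library left out in turn, Cdkn1a ranged from -0.017 to 0.077, Rb1 from -0.032 to 0.039, Klhl9 from -0.017 to 0.038 and Mtap from -0.0073 to 0.056. None of the genes whose sign turned was called with the settings of the text, and the cause of each turn was not tested. Flt1 lost its call after thinning, at -1.12. Pdgfra, Cspg4, Bub1, Cdk1, Ccne2, E2f7, Tssc4, Cdt1 and Cenpe lost theirs with library size only, and Cdt1 (0.483), Cenpe (0.482) and Tssc4 (adjusted p = 0.0747) also without a filter on low counts. Tssc4 lost its call as well with limma-voom (0.67, adjusted p = 0.0690) and with the replicate block in edgeR (0.70, adjusted p = 0.125).
The lower depth of siEgr2 libraries limits the precision of Cdkn2b, with as few as 78 counts a library. It also limits what can be said of Cdkn2a, with as few as 83, and of Egr2, with as few as 30.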
